A study of Mus musculus with 14 samples.

Results

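The SNPs between 70 and 90 Mb of the mouse X chromosome (mm10) were examined in allele-specific RNA-seq data from differentiating female ES cells. The interval was picked with earlier results of these data known, and all SNPs of the deposited table that lie in it were taken, which number 327 of 2239 X-linked SNPs (14.6 %). By the exons of the GENCODE annotation, 185 of them lie in a 3′ UTR, 129 in a coding exon and 10 in a 5′ UTR, while 2 lie in exons of 2 genes and 1 lies between genes. The SNPs that fall in a single gene belong to 61 of the 355 X-linked genes with SNPs, and 55 of these 61 genes lie between 70 and 80 Mb.

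All samples came from 1 line of Setdb1+/+ Xist∆A/+ ES cells, derived from E3.5 embryos. The sires were CAST, and the sources differ on the dams, given as 129/C57 in the labels and as 129 where this line is described. Every library, controls included, carries the Xist∆A allele. This allele lacks the A repeat that Xist needs for silencing and lies on the 129 X, which therefore stays active (Xa), and the CAST X is the one that is inactivated (Xi). Day 0 stands for undifferentiated cells without virus. Cells that carried Nons, a non-silencing hairpin, or 1 of 2 Setdb1 hairpins, shSetdb1.4 and shSetdb1.6, were collected on days 3 and 5 of differentiation, in 2 replicates of each of the 7 conditions (14 libraries). The sources differ on the day of transduction, and cultures of such lines can hold cells that have lost an X chromosome, whose number was not measured here. The RNA of Setdb1 and Xist was not analysed here, and the strength of the knockdown is therefore unchecked.

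X inactivation silences most genes of one X chromosome in female cells, and it is triggered by the coating of that chromosome with Xist RNA as the cells differentiate. Setdb1 is a histone methyltransferase that places H3K9 methylation on silenced genes and repeats. The interval from 70 to 90 Mb holds one of the densest clusters of housekeeping genes on the mouse X. It includes genes of NF-kB signalling (Ikbkg, Irak1), the actin crosslinker Flna, the transcriptional co-regulator Hcfc1, the nucleolar pseudouridine synthase Dkc1 and the mitochondrial enzyme subunit Idh3g. Outside this cluster, past 80 Mb, lie Tab3, also of NF-kB signalling, and the orphan nuclear receptor Nr0b1 of pluripotent cells. Each SNP tells the reads of the future Xi (CAST base) from those of the Xa (129 base), so that the Xi/Xa ratio reads silencing gene by gene.

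The sequences below show what was counted in 7 of these genes, the 5 with a called change in the ratio, Nr0b1 for its shares at day 0 and day 3, and Idh3g as a gene with a CAST share under 50 % over its SNPs in every library. They are GENCODE transcript sequences around a coding SNP of each gene, with between 246 (Tab3) and 3283 (Flna) reads over the 14 libraries, 29 bases written 5′ to 3′ on the strand of the gene, and the capital marks the SNP with its 129 base at position 15.
Flna: tgccccgagggctaTcgtgtcacctatac
Ikbkg: caggagagccagagCcgtttggaggctgc
Tab3: tctcagtattctccCaaacaacagcagat
Pls3: cttgtggaagtaaaAccgaagatggtcat
Pnma5: gccagggtaaggcaCccaacttcttacta
Nr0b1: ggagatcccggagaCcaacacgacgcagg
Idh3g: gtgtatgcagtattCgagacagtgagtag
The window of Flna (chrX:74225129-74225157, minus strand) holds T15C, the 129 base first and the CAST base last, and positions are counted from the 5′ end of the window. Those of Ikbkg (chrX:74437224-74437252, plus strand), Tab3 (chrX:85614700-85614728, plus strand), Pnma5 (chrX:73035620-73035648, minus strand) and Idh3g (chrX:73779969-73779997, minus strand) all hold C15T. Pls3 (chrX:75786813-75786841, minus strand) has A15G, and Nr0b1 (chrX:86192733-86192761, plus strand) has C15G.

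The libraries had between 32972 and 101511 reads over all SNPs and between 6030 and 18981 reads over those of the region, which took 16.6 to 18.7 % of the reads in every library. The shallowest was replicate 2 of Nons at day 5, a control of the main comparison. Flna, Hcfc1 and Dkc1 together held 41.5 % of the reads of the region's genes. Reads over neighbouring SNPs enter the counts more than once, since 141 of the 324 SNPs in single genes have another SNP of their gene within 100 bp, a read length. Of the 61 genes, 43 had at least 10 reads in every library and were tested (39 of them between 70 and 80 Mb), together with the other X-linked genes that passed the same filter (247 tested in all). Nothing in the labels states that same-condition libraries came from separate cultures, whereas the methods describe 2 experiments. All p-values measure the spread between these libraries.

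The region lay at or on the 129 side of the rest of the X in every library. Among its SNPs with at least 10 reads the log2 Xi/Xa ratio had a median of -0.28 in replicate 1 and -0.22 in replicate 2 at day 0, when both X chromosomes are active. In Nons it was -0.14 and -0.044 at day 3 and -0.49 and -0.28 at day 5. The rest of the X had medians of -0.093 and 0.0 at day 0. Compared library by library, the region was below the rest of the X in 12 of 14 libraries and equal to it in the other 2, both of them knockdown libraries of day 3, replicate 2. The mean difference was -0.086 ± 0.073 (SD, n = 14 libraries; exact sign-flip permutation test, two-sided, p = 0.000488), and it ranged from -0.22 in a day 0 library to 0.0. The 14 libraries come from 1 cell line and share every allele, so this p concerns the libraries and not other crosses. Whether mapping favoured the 129 base was not tested.

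**Figure D1:**
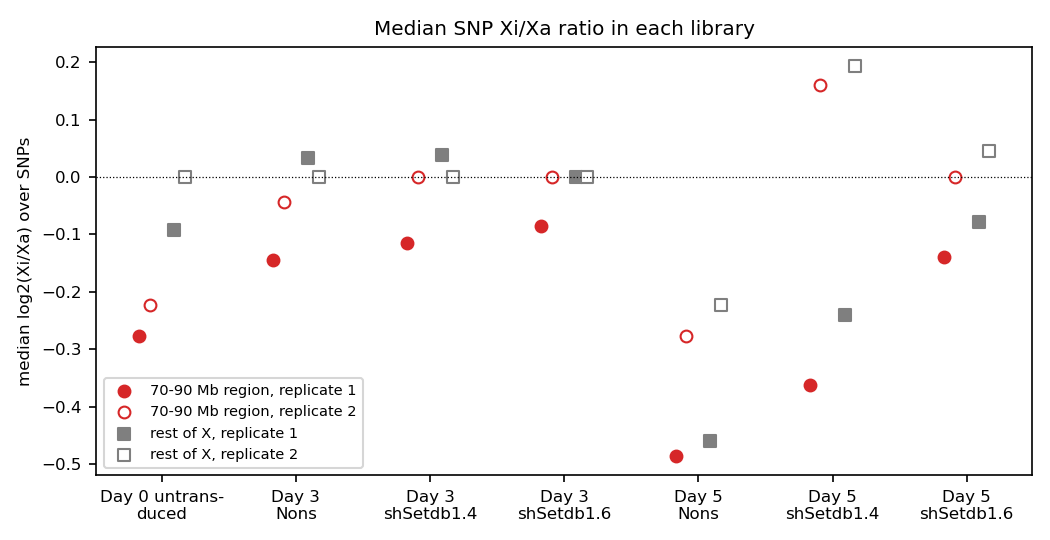
Median log2 Xi/Xa ratio over SNPs with at least 10 reads (y axis) in each of the 14 libraries, by condition (x axis), for the 70 to 90 Mb region (circles) and the rest of the X (squares), with replicate 1 filled and replicate 2 open. The region's lowest median is that of Nons replicate 1 at day 5 (-0.49), and in no library does the region exceed the rest of the X.

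Single genes of the region kept different allelic levels from the start. At day 0 the CAST share of the reads was under 50 % in both libraries in 20 of the 43 tested genes (40.5 % of all tested X-linked genes) and above it in both in 5 (23.9 % of all). The mean day 0 share ran from 25.6 to 68.0 % over the region's genes with a median of 48.1 %, against a median of 49.2 % over the 204 tested genes elsewhere. Dkc1, which modifies ribosomal and telomerase RNA, was the gene with a CAST share above 50 % in all 14 libraries (55.2 to 70.1 %), a level that 4.05 % of all tested genes show. Another 6 genes, given here with their lowest and highest shares, stayed below 50 % in every library, as did 11.7 % of all tested genes. At the SNP shown above for Idh3g the share was above 50 % in 2 libraries, with 50.6 % in Nons replicate 2 and 54.0 % in shSetdb1.6 replicate 2 at day 5. The 6 genes were Idh3g (35.8 to 46.0 %), Bcap31 (36.1 to 48.7 %), an endoplasmic reticulum membrane protein, Renbp (21.9 to 40.2 %), Gk (14.6 to 38.3 %), the glycerol kinase, Pnma5 (28.2 to 48.0 %) and Tmem47 (24.1 to 49.8 %). Bcap31 is read by 1 SNP. Dkc1 and Mpp1, which encodes a membrane scaffold protein, meet at their 3′ ends on opposite strands, yet Mpp1 had a CAST share between 25.2 and 50.0 %, below that of Dkc1 in each library.

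In Nons the Xi/Xa ratio of the region was lower at day 5 than at day 3 in both replicates. The difference in the median log2 ratio was on average -0.29 ± 0.077 (SD, n = 2), against -0.36 ± 0.19 (SD, n = 2) in the rest of the X. The exact paired permutation test gave p = 0.5, the smallest that 2 pairs allow. By gene, the ratio was higher at day 5 in 15 of the 43 (24.7 % of all tested genes) while 28 were lower. The median log2 change was -0.31 (rest of the X -0.35). At an adjusted p under 0.05, 3 genes of the region changed, all with a lower ratio, where the same edgeR test called 10.1 % of all tested X-linked genes, 9.72 % with a lower ratio. Without regard to the test, 19 genes of the region were lower in both replicates (53 % of all tested genes) and 7 were higher in both (9.31 % of all).

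The largest of these changes was that of Pls3 (plastin 3, an actin-bundling protein; chrX:75785654-75875182, minus strand, 3 SNPs, 2 of them in coding exons). Its CAST share was 69.1 and 66.9 % at day 0 and 68.0 and 71.0 % in Nons at day 3, and 43.9 and 46.1 % in Nons at day 5. The groups do not overlap, and all 3 SNPs were lower in both replicates. The log2 Xi/Xa ratio of Pls3 fell by 1.51 (SE 0.41, edgeR adjusted p = 0.00434). Behind these shares were 50 and 69 reads at day 3 and 164 and 76 reads at day 5.

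Pnma5 (a paraneoplastic antigen family gene; chrX:73033981-73037103, minus strand, 7 SNPs) had CAST shares of 42.1 and 41.6 % in Nons at day 3 and 28.2 % in both replicates at day 5. Its log2 ratio fell by 0.83 (SE 0.27, edgeR adjusted p = 0.0258), with all 7 SNPs lower in replicate 1 and 3 of 5 covered SNPs lower in replicate 2. Tab3 (an adaptor that links ubiquitin chains to the kinase Tak1; chrX:85574022-85634469, plus strand, 21 SNPs) went from 51.9 and 47.7 % to 39.1 and 33.9 %. Its log2 ratio fell by 0.73 (SE 0.25, edgeR adjusted p = 0.0398). Lower SNPs were 13 of 19 covered in replicate 1 and 2 of 2 in replicate 2. The call of Tab3 was lost without the replicate block (edgeR, adjusted p = 0.0687), and those of Pnma5 and Pls3 held (edgeR, adjusted p = 0.0341 and 0.00947). DESeq2 called 0 genes of the region. Leaving out replicate 2 of day 3 or replicate 1 of day 5 also gave 0 calls. Pls3 was called without replicate 1 of day 3 (edgeR, adjusted p = 0.0365) and without replicate 2 of day 5 (edgeR, adjusted p = 0.0236), and Pnma5 and Tab3 were called in none of these 4 fits.

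Several genes of the region went the other way without passing the test. Tmem47, a membrane protein of cell junctions, had CAST shares of 27.2 and 24.1 % at day 0, 32.5 and 33.3 % in Nons at day 3 and 41.5 and 43.4 % in Nons at day 5, so that its day 5 values lie above both earlier groups. The log2 difference from day 3 was 0.59 (SE 0.31, edgeR adjusted p = 0.231). For the creatine transporter Slc6a8 it was 0.57 (SE 0.30, edgeR adjusted p = 0.231), with shares of 32.4 and 34.8 % at day 3 and 38.6 and 51.0 % at day 5. When the ratios were centred on each library's median, which removes the shift shared by all genes, 6 genes of the region were called, Pls3 with a lower ratio and 5 (Tmem47, Slc6a8, Vbp1, Flna and Dkc1) with a higher one, where 8.1 % of all tested genes were called. Centred values are relative to the other genes of the library. Without centring the difference was 0.33 for Vbp1 (SE 0.26), 0.27 for Dkc1 (SE 0.18) and -0.03 for Flna (SE 0.16).

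**Figure D2:**
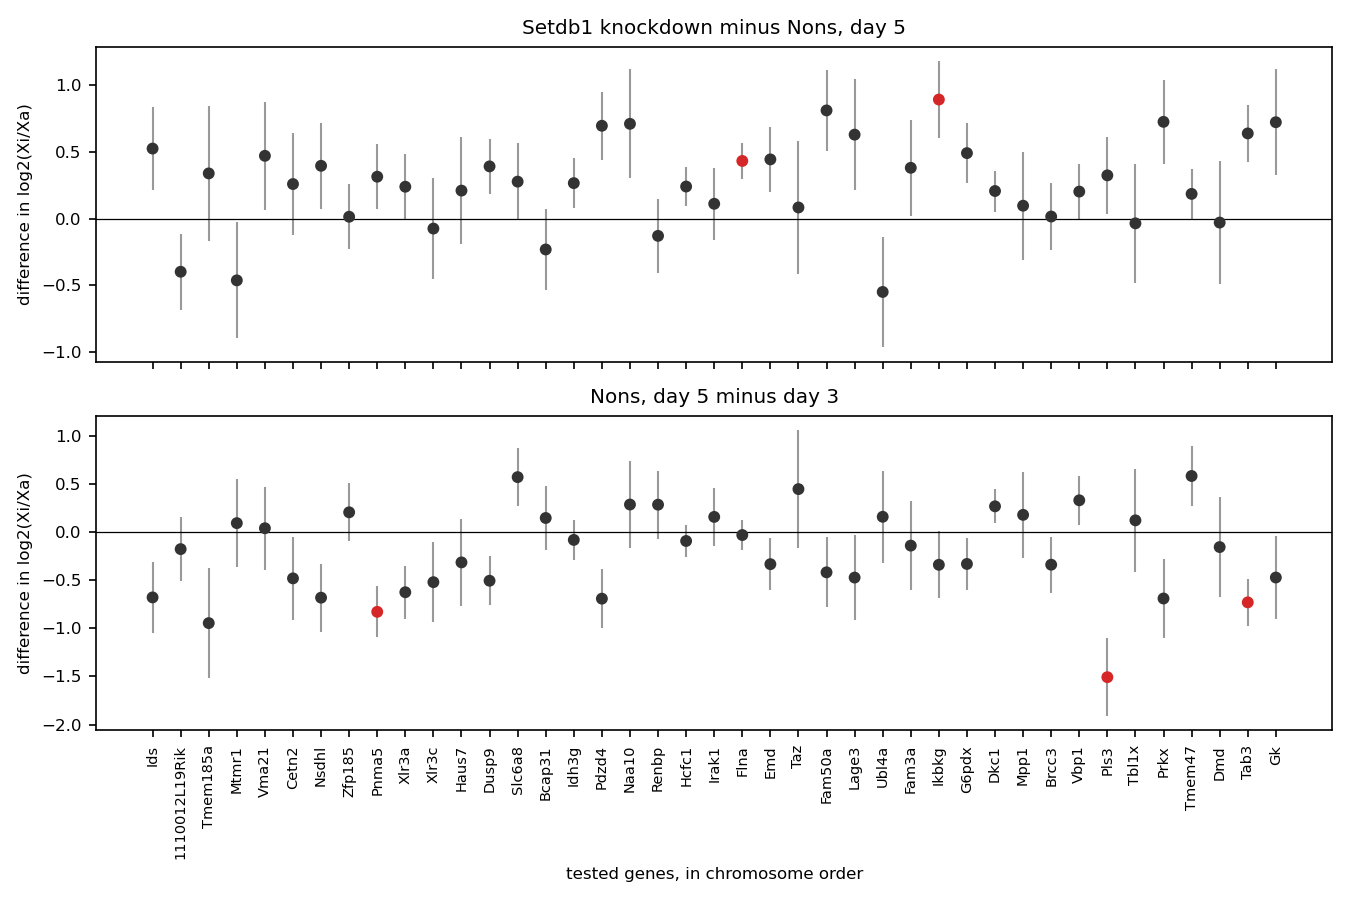
Differences in log2 Xi/Xa ratio (y axis) of 41 of the 43 tested genes in chromosome order (x axis), with the standard error as bars, for Setdb1 knockdown minus Nons at day 5 (top) and for Nons day 5 minus day 3 (bottom); red points have an adjusted p under 0.05 by edgeR's quasi-likelihood test. Flna and Ikbkg are the called genes of the top panel, and Pls3, Pnma5 and Tab3 those of the bottom panel.

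From day 0 to day 3 the median ratio of the region was higher by 0.13 in replicate 1 and 0.18 in replicate 2 (exact paired permutation test, p = 0.5, the smallest possible). By edgeR's quasi-likelihood test 0 of the 43 genes changed (0 % of all tested genes), 0 had an unadjusted p under 0.05, and DESeq2 also called 0. Nr0b1, which had too few reads at day 5 to be tested, is described here because of values already seen. Its CAST share was 49.8 and 50.1 % at day 0. In the 6 day 3 libraries it lay between 59.5 and 67.4 %, with 60.8 and 62.6 % in Nons. The day 0 and day 3 libraries do not overlap. At the SNP shown above for Nr0b1 the share was 49.0 and 49.5 % at day 0 and 65.7 and 64.7 % in Nons at day 3. Of its 10 SNPs, 6 had a higher ratio in Nons at day 3 than at day 0 in replicate 1 and 10 in replicate 2. Without the filter on genes the log2 change of Nr0b1 was 0.69 (SE 0.20, edgeR adjusted p = 0.168).

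At day 5 the Xi/Xa ratio of the region was higher with both Setdb1 hairpins than with Nons in both replicates. For shSetdb1.4 the median of log2 Xi/Xa over SNPs was -0.36 in replicate 1 and 0.16 in replicate 2, and with shSetdb1.6 it was -0.14 and 0.0. All 4 knockdown libraries lay above the Nons library of their replicate, by 0.12 and 0.44 with shSetdb1.4 (0.28 ± 0.22 on average, SD, n = 2), and for shSetdb1.6 by 0.35 and 0.28 (0.31 ± 0.050 on average, SD, n = 2). The smallest of these differences came from shSetdb1.4 replicate 1. For both hairpins together the difference was 0.30, and the exact permutation test within replicates gave p = 0.111, the smallest that its 9 arrangements allow. The unpaired exact permutation test gave p = 0.2. In the rest of the X the difference was 0.32. The region and the rest differed in this effect by -0.025 (exact permutation test within replicates, p = 0.667), and its sign changed with the SNPs that were included.

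The distal 10 Mb of the interval hold few genes, and Tmem47, Dmd, Tab3 and Gk were those tested. Between 80 and 90 Mb the median log2 ratio was -0.36 and -0.32 at day 0, 0.0 and 0.13 in Nons at day 3, and -0.69 and -0.85 in Nons at day 5, the last over 40 and 15 SNPs. The Nons libraries of day 3 thus lay above those of day 0 as well as those of day 5, over partly different SNPs. In replicate 2, 10 SNPs of Nr0b1 were covered at day 0 and in Nons at day 3, while the gene had 8 to 39 reads per library at day 5. Tmem47 had 1 SNP covered in Nons at both day 3 and day 5 of that replicate, and 12 SNPs covered at day 5. The part of this in the changes was not tested. With knockdown at day 3 the distal SNPs had -0.23 and -0.11 in shSetdb1.4 and 0.38 and -0.24 in shSetdb1.6, so that 3 of the 4 libraries lay below their Nons. Between 70 and 80 Mb it was -0.47 and -0.26 in Nons at day 5. With knockdown at day 5 the distal SNPs had -0.21 and 0.033 in shSetdb1.4 and -0.63 and -0.060 in shSetdb1.6, so that each library lay above its Nons at that day. In replicate 2 the medians rest on 41 SNPs in shSetdb1.4 and 38 in shSetdb1.6, against 15 in Nons. Whether the 2 stretches differ was not tested.

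Counted by SNP, 101 of 208 SNPs of the region (48.6 %) had a higher ratio with both hairpins than with Nons in replicate 1 at day 5, against 51.5 % of all covered SNPs on the X, and 28 (13.5 %) had a lower ratio with both (17.5 % of all). In replicate 2 there were 68 higher of 118 (57.6 %, against 59.1 % of all) and 23 lower (19.5 %, against 16.9 % of all). At day 3 the higher and lower SNPs were about as many, 37 and 43 of 132 in replicate 1 (29.1 and 34.5 % of all SNPs) and 57 and 46 of 161 in replicate 2 (33.6 and 29.5 % of all). Of the 33 genes with covered SNPs in both replicates at day 5, 25 had at least 1 higher SNP in both replicates (75.3 % of all such X-linked genes), and 6 had at least 1 lower SNP in both (27.4 % of all). In 14 of 47 genes of replicate 1 (38 % of all) and 11 of 33 of replicate 2 (33.9 % of all) the same gene held SNPs of both kinds, at a median of 22 to 29 reads per covered SNP in the day 5 libraries, and the part of counting error in this was not tested.

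Gene by gene, 35 of the 43 had a higher ratio with knockdown at day 5 (83.4 % of all tested genes did) and 8 a lower one. The median log2 difference was 0.28, against 0.36 in the rest of the X. The ratio exceeded that of Nons of the same replicate in all 4 knockdown libraries in 20 genes (49.8 % of all tested genes) and was below it in all 4 in 1 (2.43 % of all). At an adjusted p under 0.05 by edgeR's quasi-likelihood test, 2 genes of the region changed, both with a higher ratio, where 3.64 % of all tested genes had a higher ratio by the same test.

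The first was Flna (filamin A, which crosslinks actin and anchors it to the membrane; chrX:74223461-74249820, minus strand), whose 17 SNPs all lie in coding exons. The CAST share of Flna at day 5 was 41.8 and 45.6 % with Nons, 45.1 and 55.4 % in shSetdb1.4 and 50.4 and 53.7 % in shSetdb1.6. Each knockdown library lay above the Nons library of its replicate, although shSetdb1.4 replicate 1 was below Nons replicate 2. The log2 ratio was higher with knockdown by 0.43 (SE 0.13, edgeR adjusted p = 0.0390). Of its 17 SNPs, 10 were higher and 1 was lower with both hairpins than with Nons in replicate 1, and 16 were higher and 0 lower in replicate 2. These shares rest on 1701 to 5673 reads per library. At the SNP shown above for Flna the CAST share at day 5 was 49.0 and 50.2 % in Nons, 47.9 and 58.6 % in shSetdb1.4 and 57.9 and 63.4 % in shSetdb1.6, so shSetdb1.4 replicate 1 was not above its Nons at this position.

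The second was Ikbkg (the regulatory subunit NEMO of the IkB kinase complex; chrX:74393290-74453854, plus strand, 17 SNPs, 14 of them in the 3′ UTR). Its CAST share at day 5 was 41.8 and 39.1 % with Nons, 57.7 and 59.4 % in shSetdb1.4 and 53.4 and 55.6 % in shSetdb1.6, so the groups do not overlap. At day 0 it had been 50.7 and 45.6 %. Single SNPs varied more. At the SNP shown above for Ikbkg the share in replicate 1 was 32.1 % with Nons, 66.7 % with shSetdb1.4 and 16.7 % with shSetdb1.6, at 18 to 28 reads, so shSetdb1.6 was below its Nons there. Of 5 covered SNPs in replicate 1, 3 were higher with both hairpins and 1 was lower with both. The log2 ratio was higher with knockdown by 0.89 (SE 0.29, edgeR adjusted p = 0.0463). Only 46 reads stand behind the value of Nons replicate 2, and no SNP of the gene had 10 reads in all 3 libraries of that replicate. G6pdx lies inside the annotated span of Ikbkg on the other strand, and no source says whether strand was used in counting, although the SNPs used lie in exons of 1 gene each.

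Without the replicate block the adjusted p was 0.150 for Flna and 0.0895 for Ikbkg in edgeR's quasi-likelihood test, and DESeq2 called 0 genes of the region. Over 13 alternatives the adjusted p ran from 0.000118 to 0.627 for Flna and from 0.0199 to 0.502 for Ikbkg in edgeR or DESeq2. Centring the ratios on each library's median, which by construction moves the median difference of all tested genes to near 0 (from 0.35 to 0.017), gives changes relative to the other genes of the X. On that scale the log2 difference was 0.11 for Flna and 0.54 for Ikbkg (edgeR, adjusted p = 0.627 and 0.502). Leaving out shSetdb1.4 replicate 1 raised the number of called genes from 2 to 9 of 44 (21.4 % of all tested genes in that fit), a count that includes Nr0b1, which enters that fit only because its library with the fewest reads is left out. Leaving out any other library of day 5 lowered it to 0 (0.405 to 2.02 % of all).

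Tab3, which had lost CAST reads in Nons, came next to the threshold. Its CAST share at day 5 was 39.1 and 33.9 % with Nons, 43.0 and 51.4 % in shSetdb1.4 and 49.5 and 48.7 % in shSetdb1.6, and the groups do not overlap. The log2 difference was 0.64 (SE 0.22, edgeR adjusted p = 0.0515), and of its covered SNPs 10 of 16 were higher and 2 lower with both hairpins in replicate 1, and 1 of 2 was higher in replicate 2. Since both comparisons of Tab3 use the same Nons libraries of day 5, they are not independent. The same holds for Pls3, with 43.9 and 46.1 % with Nons against 47.4 and 48.9 % in shSetdb1.4 and 52.8 and 51.7 % in shSetdb1.6 (log2 difference 0.32, SE 0.29, edgeR adjusted p = 0.430). Pnma5 had 28.2 % in both Nons libraries against 30.7 and 35.1 % in shSetdb1.4 and 34.9 and 32.1 % in shSetdb1.6, and did not pass the test (log2 difference 0.31, SE 0.24, edgeR adjusted p = 0.363). With both hairpins 4 of its 7 covered SNPs were higher and 2 lower in replicate 1, and 2 of 5 were higher and 2 lower in replicate 2. At the SNP shown above for Pnma5 the share was 34.4 and 33.3 % with Nons, 29.1 and 36.5 % in shSetdb1.4 and 37.0 and 26.9 % in shSetdb1.6, so that 2 knockdown libraries lay below both Nons libraries.

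**Figure D3:**
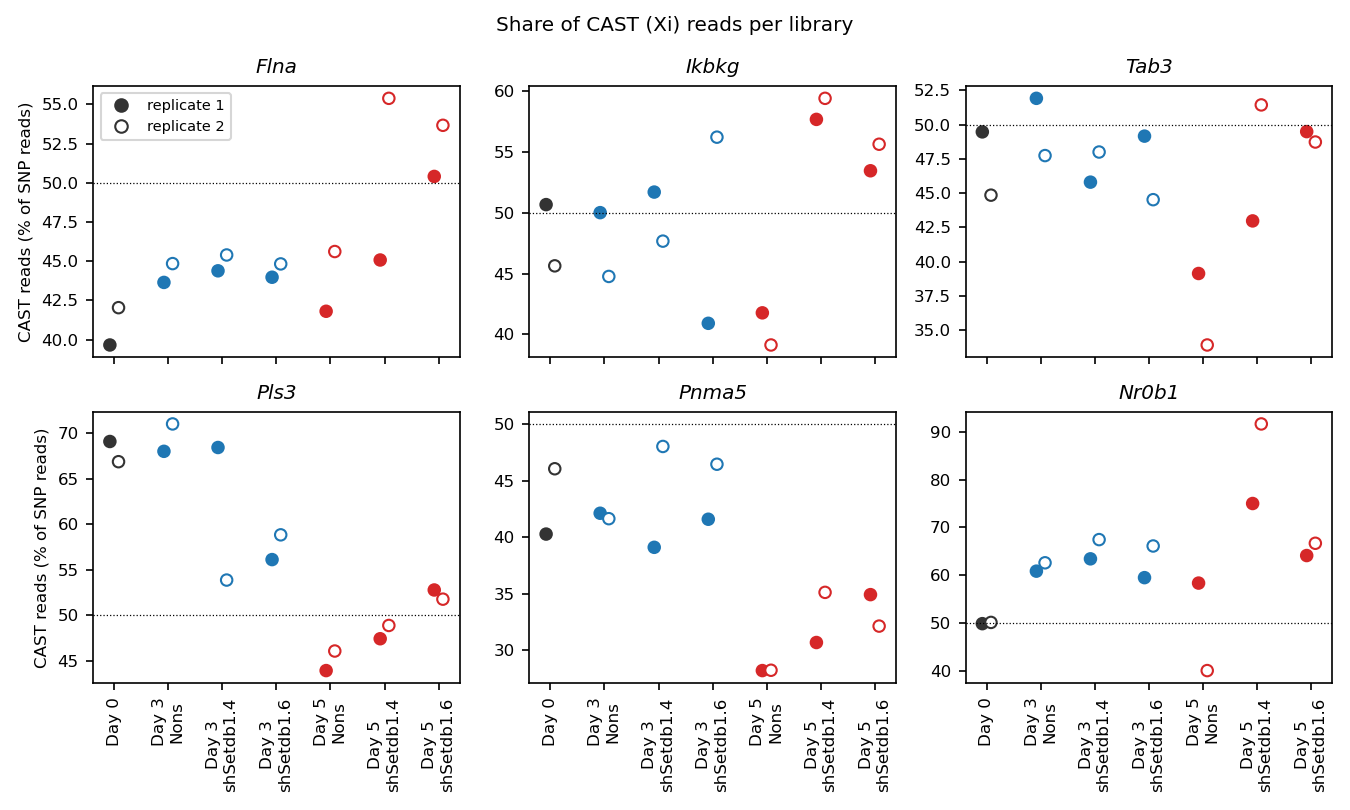
CAST share of the SNP reads (y axis, %) of 6 genes in each library by condition (x axis), with day 0 in black, day 3 in blue and day 5 in red, replicate 1 filled and replicate 2 open; the dotted line marks 50 % and the y axes differ. At day 5 the 4 knockdown libraries lie above both Nons libraries in Ikbkg, Tab3, Pls3 and Pnma5, of which Ikbkg passed the test, and Nr0b1 at day 5 rests on 8 to 39 reads per library.

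The other genes with the largest positive differences at day 5 were Fam50a, a nuclear protein of the spliceosome (0.81, SE 0.31), Prkx, a cAMP-dependent kinase (0.73, SE 0.31), Gk (0.72, SE 0.40) and the N-terminal acetyltransferase Naa10 (0.71, SE 0.41). None of these 4 passed the test, with adjusted p-values between 0.0859 and 0.220 (edgeR's quasi-likelihood test). Naa10 and Fam50a are each read by 1 SNP. The CAST shares of Fam50a were 43.2 and 52.0 % with Nons, 49.5 and 67.6 % in shSetdb1.4 and 62.2 and 64.4 % in shSetdb1.6. At the other end were Ubl4a, which helps insert tail-anchored proteins into membranes (-0.55, SE 0.41), the phosphoinositide phosphatase family gene Mtmr1 (-0.46, SE 0.43), 1110012L19Rik (-0.40, SE 0.29), Bcap31 (-0.23, SE 0.30) and Renbp (-0.13, SE 0.28). Their adjusted p-values were between 0.346 and 0.784 by the same edgeR test. 1110012L19Rik was the gene that was lower in all 4 knockdown libraries, with 36.7 and 46.9 % with Nons against 30.8 and 39.1 % in shSetdb1.4 and 34.3 and 33.3 % in shSetdb1.6.

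The groups by function are given as counts, to be read against the 83.4 % of all tested genes with a higher ratio and the 3.64 % called with one, and no group was tested against the rest. All 3 tested genes of NF-kB and innate signalling had a higher ratio with knockdown and 1 passed the test, with a median log2 difference of 0.64, although the receptor-associated kinase Irak1 was at only 0.11 (SE 0.27). Among genes of chromatin, the nuclear envelope and RNA, 10 of 11 had a higher ratio and 0 passed (median 0.26), including Hcfc1 (0.24, SE 0.15), Dkc1 (0.21, SE 0.15) and the inner nuclear membrane gene Emd (0.44, SE 0.24). Of the 10 tested genes of metabolism and mitochondria 8 had a higher ratio and 0 passed (median 0.33), with G6pdx, the first enzyme of the pentose phosphate pathway, at 0.49 (SE 0.23) and Idh3g at 0.27 (SE 0.19). The secretory pathway had 4 of 6 genes with a higher ratio and 0 passed (median 0.15). In the cytoskeleton group 2 of 3 had a higher ratio and Flna passed, with the dystrophin gene Dmd at -0.03 (SE 0.46). Of 4 tested genes of the germline and placenta list 3 had a higher ratio and 0 passed (median 0.13), and in this list Xlr3a and Xlr3c are near-identical copies whose reads could have been split by the mapping. The median over all tested genes of the X was 0.35.

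At day 3 all 4 knockdown libraries again had a higher median ratio than the Nons library of their replicate, by 0.029 and 0.044 with shSetdb1.4 and by 0.059 and 0.044 with shSetdb1.6. The difference was 0.044 for both together (exact permutation test within replicates, p = 0.111, the same smallest possible value as at day 5), and it was -0.0059 as a median over genes. Whether the medians moved more at day 5 than at day 3 was not tested. The ratio was higher in 26 of the 43 genes (51.4 % of all tested genes) and lower in 17. It was higher than Nons in all 4 knockdown libraries in 7 genes (8.1 % of all) and lower in all 4 in Hcfc1 and Tmem47 (9.31 % of all). By the test, 0 changed by edgeR's quasi-likelihood test or by DESeq2 (0 % of all), with 1 at an unadjusted p under 0.05. It was Naa10, read by 1 SNP, at a log2 difference of 0.75 (SE 0.36, edgeR adjusted p = 0.985). The difference between the effects at day 5 and day 3 was positive in 32 of the 43 genes (77.3 % of all tested genes), with a median of 0.29, and 0 of them passed the test of the interaction in edgeR (0.81 % of all did), with 4 at an unadjusted p under 0.05. Its largest member by p was Tab3, at 0.80 (SE 0.30, edgeR adjusted p = 0.277). Leaving out shSetdb1.4 replicate 1 of day 5 gave 2 calls among 44 genes (4.44 % of all tested genes in that fit). These 44 include Nr0b1, which enters that fit only because its library with the fewest reads is left out.

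The summed reads of both alleles at the SNPs of a gene give its total, which is a level of RNA only as far as the SNPs sample the gene. In bulk samples, fewer cells that express a gene and less RNA per cell cannot be told apart. Totals are scaled to the X-linked SNP reads of their library, so a change shared by most X-linked genes would not show. On that scale the totals of the region did not change with knockdown at a detectable level. At day 5, 0 of the 43 genes passed edgeR's quasi-likelihood test (0 % of all tested genes), 0 had an unadjusted p under 0.05, and DESeq2 called 0. The median difference was -0.012 on the log2 scale. At day 3 the numbers were 0, 0 and 0 (0 % of all), with a median of -0.061. For Flna at day 5 the library values were 380.3 and 529.4 reads per 10000 SNP reads with Nons, 499.9 and 572.0 in shSetdb1.4 and 318.7 and 428.2 in shSetdb1.6, and the groups overlap. Ikbkg had 27.8 and 14.3 with Nons, 18.1 and 16.6 in shSetdb1.4 and 25.0 and 23.9 in shSetdb1.6, again with overlap.

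Between the days of differentiation, in contrast, many totals differed. From day 3 to day 5 of Nons 14 of the 43 genes changed, 6 upward and 8 downward (27.9 % of all tested genes changed, 14.6 % upward and 13.4 % downward). Tmem47 had the largest rise, from 15.9 and 10.7 reads per 10000 at day 3 to 90.3 and 91.8 at day 5 (log2 change 2.75, SE 0.22, edgeR adjusted p = 8.74e-07). The rise of Pls3 was from 9.9 and 8.8 to 19.2 and 23.6 (1.14, SE 0.26, edgeR adjusted p = 0.00643), so that its total rose as its CAST share fell. Flna rose from 222.3 and 247.9 to 380.3 and 529.4 (0.91, SE 0.23, edgeR adjusted p = 0.0127). The prefoldin subunit Vbp1 (0.68) and the MAP kinase phosphatase Dusp9 (0.62) also rose.

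Among the 8 downward changes Slc6a8 was the largest, from 57.7 and 50.6 reads per 10000 to 20.03 and 15.87 (log2 change -1.61, SE 0.29, edgeR adjusted p = 0.00118). Gk fell from 19.7 and 18.5 to 11.2 in both replicates (-0.80), and Idh3g from 112.6 and 95.2 to 70.2 and 72.5 (-0.58). The others were Mtmr1 (-1.16), Lage3 (-1.16), Dmd (-1.07), the proton pump assembly factor Vma21 (-1.06) and Pnma5 (-0.92). In the metabolism and mitochondria group 4 of the 10 tested genes were called downward and 0 upward. By sign alone, 6 of these 10 were lower and 4 higher. In the cytoskeleton group 2 of 3 were called upward and 1 downward. Over all tested genes 13.4 % were called downward and 14.6 % upward. No group was tested against the others. Leaving out replicate 2 of Nons at day 3 reduced the 14 calls to 3 (9.27 % of all tested genes in that fit), leaving out replicate 1 of that day to 7 (17.7 % of all), and leaving out replicate 1 of Nons at day 5 to 8 (15.8 % of all).

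From day 0 to day 3 the totals of 4 genes changed (9.72 % of all tested genes, 4.45 % upward and 5.26 % downward). Cells of day 0 carried no virus and those of day 3 were transduced and selected, so time and transduction cannot be told apart. Flna rose from 113.4 and 171.1 to 222.3 and 247.9 reads per 10000 (log2 change 0.81). Pls3 fell from 19.4 and 21.1 to 9.9 and 8.8 (-1.03), Gk from 37.7 and 33.1 to 19.7 and 18.5 (-0.80) and Renbp from 61.3 and 34.8 to 20.1 and 11.4 (-1.55). Flna was thus called upward in both intervals and Gk downward in both, while Pls3 fell and then rose. Leaving out replicate 1 of day 0 or either Nons library of day 3 reduced the 4 calls to 0 (0 to 3.23 % of all tested genes in those fits), and leaving out replicate 2 of day 0 raised them to 7 (14.2 % of all).

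**Figure D4:**
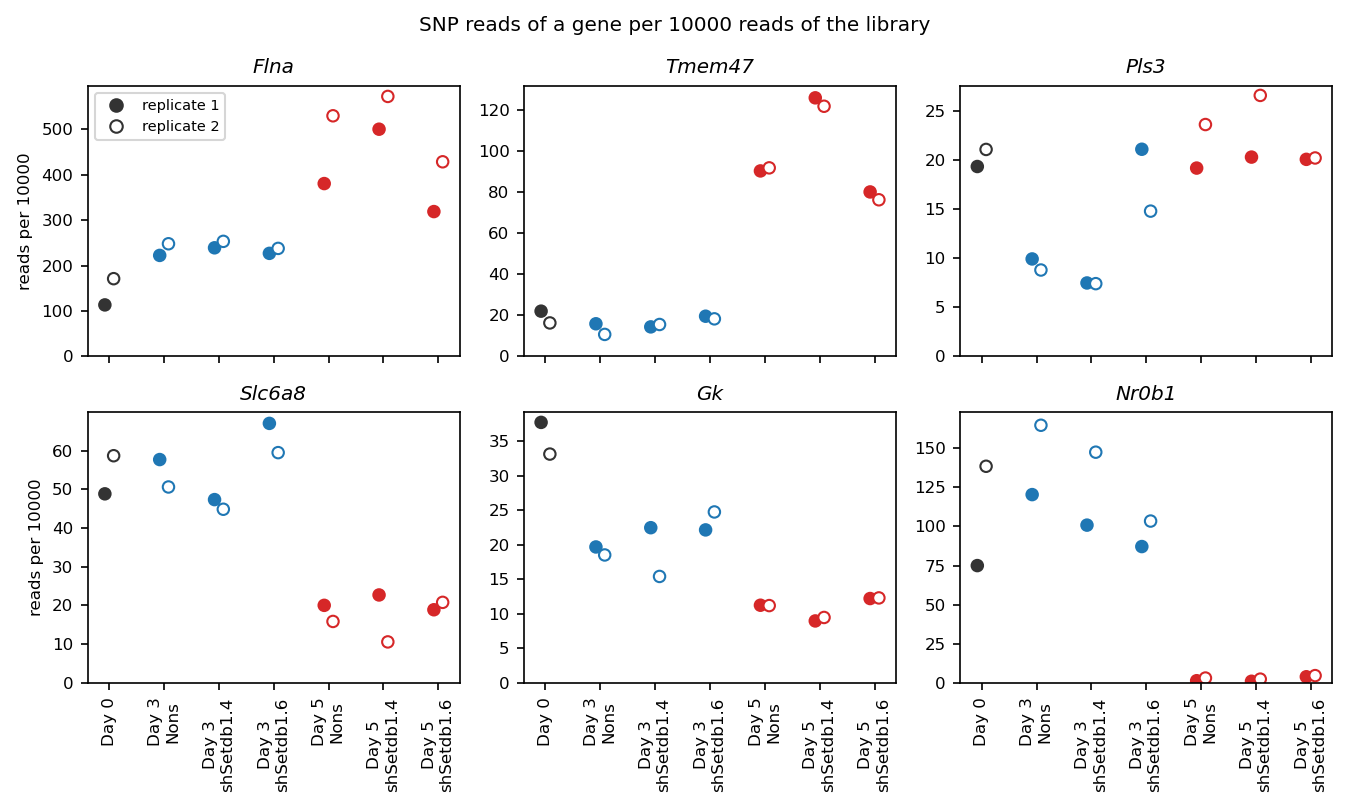
SNP reads of 6 genes per 10000 SNP reads of the library (y axis, from 0, scales differ) by condition (x axis), with day 0 in black, day 3 in blue and day 5 in red, replicate 1 filled and replicate 2 open. Tmem47 rises to between 76.3 and 125.9 and Nr0b1 falls to between 1.1 and 4.7 at day 5 in all 6 libraries, whatever the hairpin.

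Nr0b1 (chrX:86191764-86195947, plus strand, 10 SNPs, 9 of them in the coding exons) is known for its expression in naive pluripotent cells, and few of its reads were left at day 5. It had 75.0 and 138.4 reads per 10000 at day 0, between 87.1 and 164.6 at day 3 and between 1.1 and 4.7 at day 5. In counts, 605 and 1288 reads in Nons at day 3 became 12 and 10 at day 5. Without the filter on genes the log2 change was -6.11 (SE 0.48, edgeR adjusted p = 2.05e-07). Its CAST share at day 5 was 58.3 and 40.0 % with Nons, 75.0 and 91.7 % in shSetdb1.4 and 64.1 and 66.7 % in shSetdb1.6. The log2 difference with knockdown was 1.78 (SE 0.75, edgeR without the filter, adjusted p = 0.158), at 8 to 39 reads per library. Dusp9, the other gene of the list of naive pluripotency, rose over the same interval (0.62, given above).

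The 18 genes that were not tested included Nr0b1. The others had at most 617 reads over all libraries, and 5 of the 18 had a library with no read. All 18 had between 0 and 8 reads in their shallowest library, and apart from Nr0b1 their ratios are not described here.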

How the data were processed

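Reads (100 bp, single-end, TruSeq) were mapped by the authors to mm10 with Subread, and the deposited counts are their numbers of reads with the 129 or CAST base at each X-linked SNP of the Mouse Genomes Project, from samtools pileup. The submitters' processing notes name CASAVA 1.8.2 and SAMtools. These counts are not normalized, and each replicate has its own columns. Of the per-sample columns, 4 belong to other samples and were not used.

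Genes were given to SNPs by GENCODE exons of the same build, and a SNP that did not fall in exactly 1 gene was left out of results per gene. The log2 Xi/Xa ratio, (CAST + 1)/(129 + 1), was taken where a SNP had 10 reads or more. For medians per library the tests were exact permutation tests, two-sided, run in Python 3.11.15 (numpy 2.4.6, pandas 2.3.3). The 247 genes with 10 or more reads in all libraries were tested in edgeR 4.0.16 (R 4.3.3), using its quasi-likelihood test. Benjamini-Hochberg adjustment covered all 247. For ratios, all 14 libraries were fitted with a term per library, an allele effect per condition and an allele effect per replicate (the replicate block, after the within-replicate comparison of the study). Totals were fitted with TMM normalization over the tested X-linked genes and no block. Common dispersions were 0.00727 and 0.0407. DESeq2 1.42.0 was an alternative. The scripts were tested on simulated data. Counting error and reads counted at several SNPs limit the precision of each share.

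Named genes were the members past an adjusted p of 0.05, the 5 highest and 5 lowest differences at day 5, the 6 with the most reads and tested members of lists by function. In addition Nr0b1 is named for its ratio because of values already seen. The interval, its genes and the lists were chosen with earlier results of these data known. Some tested genes that this rule names are counted but not reported here by name.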

Additional observations from a re-analysis of the deposited data

Results flagged for a closer look

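In Tmem47 the 4 knockdown libraries of day 5 had a higher Xi/Xa ratio than the Nons library of their replicate (log2 difference 0.19, SE 0.18). All 4 knockdown libraries of day 3 had a lower one (-0.40, SE 0.33), so the direction differed between the days. Of all tested genes 49.8 % were higher in all 4 at day 5, and 9.31 % were lower in all 4 at day 3. The day 3 shares of Tmem47 rest on 73 to 109 reads per library. The CAST share at day 3 was 32.5 and 33.3 % with Nons and between 24.7 and 29.5 % with knockdown. At day 5 it was 41.5 and 43.4 % with Nons and between 42.9 and 49.8 % with knockdown. The test of the difference between the days did not pass (0.59, SE 0.38, edgeR quasi-likelihood adjusted p = 0.433).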

How the results depend on the processing

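The higher median ratio of the region with knockdown at day 5 kept its direction under all alternatives (0.24 to 0.41, and 0.23 to 0.36 with single libraries left out), as did the lower ratio of Nons at day 5 than at day 3 and the region's deficit against the rest of the X (-0.12 to -0.074). The day 3 difference reversed to -0.0059 as a median over genes. The difference between region and rest in the day 5 effect (-0.025) reversed to 0.069 at 20 or more reads, 0.045 with at most 1 SNP per 100 bp and 0.096 with SNPs of 10 or more reads in all libraries, and ran from -0.065 to 0.016 as single libraries were left out; the cause was not tested. Replicate numbers are paired by the study's comparison, while same-numbered libraries deviated together only weakly for ratios (mean correlation 0.0514, -0.139 to 0.266). For totals, which were fitted without a block, the mean correlation was 0.207 (-0.0587 to 0.657). The 2 ratio calls at day 5 became 0 without the replicate block, without a filter, with DESeq2, with centred ratios and with the contrast's libraries alone, 4 with at most 1 SNP per 100 bp, and 0 to 9 as single libraries were left out. The 3 calls of Nons from day 3 to day 5 became 2 without the block, 0 with DESeq2 and with the contrast's libraries alone, 6 with centred ratios, and 0 to 2 with single libraries left out. From day 0 to day 3, 1 gene was called with the contrast's libraries alone, Nr0b1. It is low at day 5 and enters that fit only because the day 5 libraries are left out, so that the call is no support. Nr0b1 also enters the fits without shSetdb1.4 replicate 1 of day 5, which gave the 9 calls above and the 2 of the interaction. The interaction gave 0 to 2 calls, totals from day 3 to day 5 gave 3 to 12 and from day 0 to day 3 0 to 7 with single libraries left out. With the replicate block the totals gave 17 and 6 calls in these intervals. With a Nons library left out, that arm holds 1 sample, which is assumed to vary like the others. Of the called genes' alternatives 86 lost the call, and none reversed. Depth limits single SNPs and genes under about 30 reads per library.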
